A study of Caenorhabditis elegans with 18 samples.

Results

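Caenorhabditis elegans animals carrying a deletion in nhr-68 were compared with animals carrying a deletion in nhr-10 after both had been given vitamin B12 at 20 nM together with propionate at 40 mM for 48 hours. The comparison rests on 4 RNA sequencing libraries, 2 per mutant, chosen by genotype and treatment from the 18 libraries of the series, and it covers the 15575 of 20953 genes that reached 1 FPKM in at least 2 of the 18 libraries. FPKM, a fragment count divided by gene length and library size, is the unit of every level given here. The nhr-68 animals carry the allele gk708 (strain VC1527) and the nhr-10 animals the allele tm4695, for which the labels give no strain name. Each mutant was also sampled untreated and on 20 nM B12 alone, and the wild type N2 was sampled under the same 3 treatments, always with 2 libraries. The untreated libraries are titled OP50, a bacterial food strain, and the titles of the other libraries name no food. All animals were grown on agar made without B12, synchronized by 18 hours of arrest as L1 larvae, and collected as L4 larvae, about 3000 whole animals to a library. Outcrossing of the strains is not given in the sources used here, and nothing in the labels says that the 2 libraries of a group came from separate cultures. The p-values rest on the spread within groups pooled over all 9 groups of the series, not over the 4 compared libraries alone. That spread may therefore be technical.

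NHR-10 and NHR-68 are nuclear hormone receptors, transcription factors of a family that is greatly expanded in nematodes. Propionate, a short-chain fatty acid released by the breakdown of certain amino acids and of fatty acids with an odd number of carbons, is cleared by a pathway that needs vitamin B12. When that pathway is short of B12 or overloaded, C. elegans turns on the propionate shunt, a B12-independent route that resembles β-oxidation, and both receptors are known from earlier work to be needed for turning it on. The comparison of the mutants asks whether the absence of one receptor leaves the animal with the same transcripts as the absence of the other when propionate is high.

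Depth was estimated at about 12800000 to 14070000 fragments in the 4 libraries. The nhr-10 mutant library 2 stood apart from the 17 others on the second of the main axes of the collagen, moulting and yolk protein genes, which change quickly during the L4 stage. Summed levels of the 6 vitellogenins, the yolk protein genes, were 1213 and 103.8 FPKM in the nhr-10 libraries and 4657 and 3853 FPKM in the nhr-68 libraries. The 22 moulting genes summed to 1330.4 and 1643 against 816 and 714 FPKM, and the 22 oocyte and germline genes to 1809 and 1208 against 2570 and 2605 FPKM. None of these 50 genes was called by limma with Benjamini-Hochberg adjustment, while at an unadjusted p under 0.05 all 6 vitellogenins and 15 germline genes were higher and 12 moulting genes lower in nhr-68 mutants. At that level 819 of all 15575 tested genes were higher and 2038 lower. The 2 wild-type libraries of the same treatment also lay far apart. They read 905 and 3519 FPKM for the vitellogenins, 1094 and 637 for the moulting genes and 1810 and 2538 for the germline genes. The summed levels of these stage markers thus did not overlap between the libraries of the mutants, though none of the genes passed adjustment. Whether these markers differed by genotype or by library cannot be told apart. Their part in the differences below was not tested beyond the fits given with them. In RNA from whole animals, fewer cells of a type and less RNA per cell cannot be told apart.

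**Figure D1:**
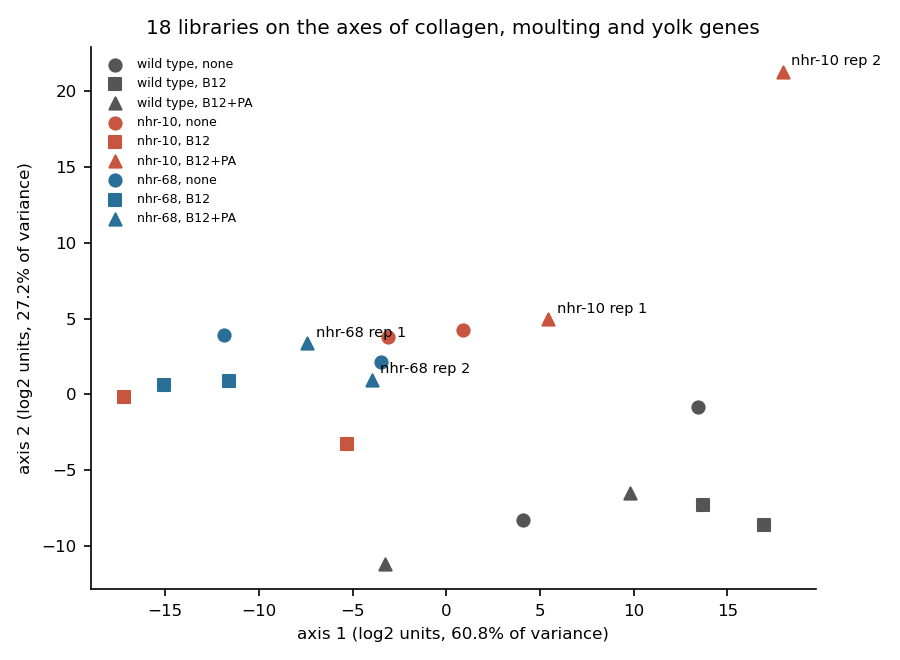
Position of the 18 libraries on the first 2 principal components of log2(FPKM + 1) over 175 collagen, moulting and vitellogenin genes; each point is 1 library, with axis 1 and axis 2 in log2 units. The nhr-10 mutant library 2 on B12 with propionate lies alone at 17.9 and 21.3, its partner at 5.46 and 4.95, and the nhr-68 libraries of that treatment at -7.41 and 3.38 and at -3.97 and 0.97.

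Between the mutants on propionate, 199 genes differed (limma, Benjamini-Hochberg adjusted p under 0.05), 1.28% of those tested. Of these, 65 were higher in nhr-68 mutants (0.417%) and 134 were lower (0.86%), with at least 2-fold differences in 52 and 101. At an unadjusted p under 0.05 there were 2857 genes, 819 higher and 2038 lower in nhr-68 mutants. Genes higher in nhr-68 mutants included the acyl-CoA dehydrogenase genes acdh-2 and ivd-1, the dehydrogenase gene dhs-25, the folate transporter gene folt-2 and C09B8.4. Genes higher in nhr-10 mutants included glutathione S-transferases (gst-4), the hydrogen sulphide response gene cysl-2 and pathogen response genes (pals-14). The median log2 difference over all genes was -0.12. Median-ratio scaling shifted it by 0.102, to -0.02, and then 171 genes were called, 78 higher and 93 lower.

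The count of calls depended on every library. It was 376 without nhr-10 library 1 (138 higher and 238 lower), 52 without nhr-10 library 2 (28 and 24), 64 without nhr-68 library 1 (27 and 37) and 58 without nhr-68 library 2 (25 and 33). With both stage axes as covariates 32 genes were called, and here the higher genes outnumbered the lower, 22 to 10. With only the compared groups in the fit 12 were called, 10 higher and 2 lower. In all 4 fits without a library 40 of the 199 genes were still called, 22 of them higher in nhr-68 mutants and 18 lower. Of the 134 lower genes, 100 had their higher nhr-10 level in library 2. The share of all tested genes with that order is not given here, so the count may not be particular to the lower genes. Most of the 134 lower calls, and most of the 65 higher ones, were lost without that library.

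**Figure D2:**
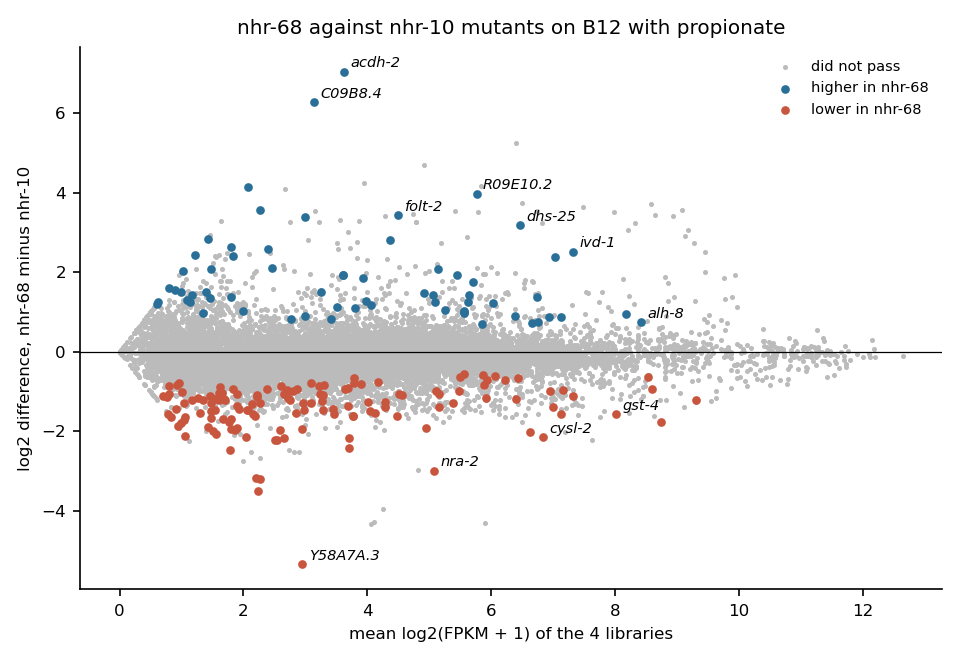
Log2 difference, nhr-68 minus nhr-10 mutants, against the mean log2(FPKM + 1) of the 4 libraries on B12 with propionate, 1 point per tested gene, with called genes coloured. The 65 called genes above 0 reach 7.04 for acdh-2, and the 134 below 0 reach -5.35 for Y58A7A.3.

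Wild-type levels under the same treatment placed the called genes. On the log2 scale the wild-type mean was nearer the nhr-68 mutants for 109 of the 134 lower genes and for 36 of the 65 higher genes. The called genes were chosen by the mutants' difference in these same libraries, and the share over all genes is not given here. These counts therefore do not show which mutant departed from wild type. In their own comparisons with wild type, 1120 genes differed in nhr-10 mutants (7.19% of those tested), 872 higher (5.6%) and 248 lower (1.59%), and 488 in nhr-68 mutants (3.13%), 184 higher (1.18%) and 304 lower (1.95%). Both comparisons share libraries with the one described here, so their overlap with it is not a result. The first count was 219 without nhr-10 library 2 and 377 without wild-type library 2, and its direction turned with the stage axes (4 higher and 13 lower) and with only the compared groups (1 and 6). The second was 17 with the stage axes, 12 with only the compared groups, 67 without wild-type library 1, 188 without wild-type library 2, 52 without nhr-68 library 1 and 93 without nhr-68 library 2.

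The receptor genes themselves were not silent in their mutants, and neither the labels nor the table says which part of each gene the deletion removes, so a whole-gene level does not check the genotype fully. nhr-68 (V, 11573440 to 11575709) read 10.8 and 18.2 FPKM in nhr-10 mutants, 2.10 and 3.99 in nhr-68 mutants, and 53.5 and 55.9 in wild type. The mutants did not overlap, with the nhr-68 libraries lowest. The difference was -1.93 ± 0.381 (SE) on the log2(FPKM + 1) scale, with a limma Benjamini-Hochberg adjusted p of 0.0318. That call held in only 1 of the 4 fits without a library, and adjusted p was 0.335 without nhr-10 library 2. With the stage axes the difference was -1.13 (adjusted p = 0.782). nhr-10 (III, 7112295 to 7115438) read 9.29 and 10.3 FPKM in nhr-10 mutants, 16.9 and 20.1 in nhr-68 mutants, and 33.5 and 14.9 in wild type, and its difference did not pass (0.85 ± 0.316, adjusted p = 0.198). Among 9 other regulators of lipid and B12-linked metabolism, limma called none: the receptors nhr-8, nhr-13, nhr-49, nhr-66, nhr-80, nhr-86 and nhr-114, the Mediator subunit mdt-15 and the sterol regulatory factor sbp-1. Their differences lay between -0.65 (nhr-8) and 0.34 (sbp-1), and 1, nhr-8, had an unadjusted p under 0.05.

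Of the 5 propionate shunt genes only alh-8 was called, against 0.417% of all genes called higher, although every one of them had its 2 nhr-68 libraries above its 2 nhr-10 libraries and an unadjusted p under 0.05. The same held for nhr-68 libraries above without overlap in 2557 of all 15575 genes, and for an unadjusted p under 0.05 on the higher side in 819. alh-8 (II, 11729055 to 11731198), the semialdehyde dehydrogenase gene at the end of the shunt, read 234 and 297 FPKM in nhr-10 mutants, 443 and 437 in nhr-68 mutants and 582 and 565 in wild type. Its difference was 0.74 ± 0.133 (SE; limma, Benjamini-Hochberg adjusted p = 0.0181), and the call was kept without nhr-10 library 2 (adjusted p = 0.0222) and lost without any of the other libraries, with the stage axes (0.92, adjusted p = 0.0729) and with only the compared groups (adjusted p = 0.152).

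acdh-1 (I, 6497436 to 6499560), the acyl-CoA dehydrogenase gene that opens the shunt, was almost absent from both mutants. It read 0.16 and 0.44 FPKM in nhr-10 mutants, 1.68 and 2.75 in nhr-68 mutants, and 2070 and 1397 in wild type. The nhr-68 libraries were the higher ones without overlap, but both mutants lay far below wild type. The difference between them was 1.29 (95% interval 0.61 to 1.98; adjusted p = 0.0726). With a pseudocount of 0.1 in place of 1 it was 2.59 and acdh-1 was called (adjusted p = 0.0168).

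On B12 with propionate the other shunt genes followed the same order. ech-6 (III, 9751552 to 9752883), an enoyl-CoA hydratase gene, read 120.3 and 121.8 FPKM in nhr-10 mutants, 174 and 185 in nhr-68 mutants, and 898 and 843 in wild type, and its difference was 0.57 (0.18 to 0.95; adjusted p = 0.153). For hach-1 (III, 5555450 to 5557318), the hydrolase gene, the levels were 50.4 and 58.5, 75.5 and 105.6, and 478 and 454 FPKM, with a difference of 0.71 (0.23 to 1.18; adjusted p = 0.147). For hphd-1 (II, 12994354 to 12996571), which encodes the transhydrogenase that oxidizes 3-hydroxypropionate, they were 16.36 and 24.5, 28.5 and 29.8, and 431 and 327 FPKM. Its difference was 0.52 (0.00 to 1.03; adjusted p = 0.272), and with the stage axes it was 1.21 (adjusted p = 0.0446). Untreated, the order was not the same in every shunt gene. acdh-1 there read 334 and 591 FPKM in nhr-10 mutants against 237 and 187 in nhr-68 mutants. The untreated differences were -1.07 for acdh-1, -0.14 for ech-6, 0.29 for hphd-1, 1.29 for hach-1 and 1.06 for alh-8. Of these, limma called hach-1 (adjusted p = 0.0203) and alh-8 (adjusted p = 0.00193). On B12 with propionate the median log2 difference of the 5 shunt genes was 0.71, against -0.12 over all genes. Of the 8 genes of canonical, B12-dependent propionate breakdown, limma called none, 4 were lower in nhr-68 mutants at an unadjusted p under 0.05 (mmab-1, pcca-1, mmad-1 and mmcm-1), and the median was -0.29. At that level 2038 of all 15575 genes were lower. pcca-1, a subunit gene of propionyl-CoA carboxylase, read 153 and 191 FPKM in nhr-10 mutants and 127 and 133 in nhr-68 mutants. mmcm-1, the methylmalonyl-CoA mutase gene, read 61.7 and 66.4 against 52.1 and 55.4 FPKM.

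At the pseudocount of 1 the largest log2 difference between the mutants was that of acdh-2 (II, 5544778 to 5547492), an acyl-CoA dehydrogenase gene closely similar to acdh-1. It read 0.07 and 0.08 FPKM in nhr-10 mutants, 86.03 and 229 in nhr-68 mutants, and 52.3 and 54.6 in wild type. Both nhr-68 libraries lay above wild type and both nhr-10 libraries near 0. The difference was 7.04 ± 0.426 (SE; limma, Benjamini-Hochberg adjusted p = 1.25e-06), and it was 9.65 with a pseudocount of 0.1. Reads from the similar acdh-1 and acdh-2 sequences are shared between them by an estimate, and the part of that estimate in the difference was not tested. C09B8.4 (X, 6018442 to 6019936), for which no role is given here, followed the same order. It was listed at 0 in both nhr-10 libraries, at 61.2 and 96.8 FPKM in nhr-68 mutants and at 27.5 and 27.8 in wild type, and its fitted difference of 6.29 ± 0.265 (adjusted p = 6.88e-08) depends on the pseudocount, being 9.59 at 0.1.

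dhs-25 (X, 1486532 to 1489326), a short-chain dehydrogenase gene, read 24.4 and 32.5 FPKM in nhr-10 mutants, 238 and 297 in nhr-68 mutants, and 131 and 156 in wild type (3.19 ± 0.174, adjusted p = 8.8e-07). ugt-53 (V, 2849343 to 2852028), of the UDP-glucuronosyltransferase family that conjugates sugars to small molecules, read 1.49 and 1.47, 20.3 and 30.3, and 11.5 and 7.04 FPKM (3.38 ± 0.244, adjusted p = 8.32e-06). In all 4 of these genes both nhr-68 libraries were above both wild-type libraries and both nhr-10 libraries below them. folt-2 (V, 2872465 to 2875600), a folate transporter gene, broke that order: it read 6.06 and 5.72 FPKM in nhr-10 mutants, 58.4 and 91.4 in nhr-68 mutants, and 355 and 298 in wild type (3.43 ± 0.200, adjusted p = 9.82e-07). Both mutants were below wild type there, nhr-10 mutants farther. All 5 genes were called in every fit without a library and with the stage axes as covariates.

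These 5 genes were also the ones whose difference between the mutants was larger with propionate than on B12 alone, as tested by limma's interaction term with Benjamini-Hochberg adjustment; they were 0.0321% of the genes tested, and no gene was called with a smaller difference, against 375 and 465 genes in the 2 directions at an unadjusted p under 0.05. On B12 alone acdh-2 was listed at 0 in both nhr-10 libraries and read 0.66 and 1.81 FPKM in nhr-68 mutants, and the mutants' difference grew by 5.93 ± 0.602 (SE; adjusted p = 0.00218). C09B8.4 on B12 alone was also listed at 0 in both nhr-10 libraries and read 0.08 and 0.91 FPKM in nhr-68 mutants (5.76 ± 0.375, adjusted p = 2.41e-05). For folt-2 the B12 levels were 4.99 and 5.91 against 9.55 and 12.04 FPKM (2.56 ± 0.283, adjusted p = 0.00287). For dhs-25 they were 32.01 and 34.9 against 56.5 and 67.96 FPKM (2.32 ± 0.246, adjusted p = 0.00234), and for ugt-53 1.82 and 1.73 against 3.40 and 4.51 FPKM (2.55 ± 0.344, adjusted p = 0.0193). In nhr-10 mutants none of the 5 had a higher mean with propionate than on B12 by more than 1 FPKM. The interaction count was 67 without nhr-10 library 1 on propionate, where 44 were larger and 23 smaller, and it lay between 4 and 6, all larger, without each of the other libraries. Without the low-value filter 11 were larger and 19 smaller, and with only the compared groups none of the 5 was called. The contrast was not limited to propionate: untreated nhr-68 mutants read 149.5 and 166 FPKM of acdh-2 and 77.2 and 81.0 of C09B8.4, against 0.08 and 0 and against 0 and 0.26 in untreated nhr-10 mutants, while untreated wild type read 16.18 and 22.9 and 3.68 and 4.46.

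**Figure D3:**
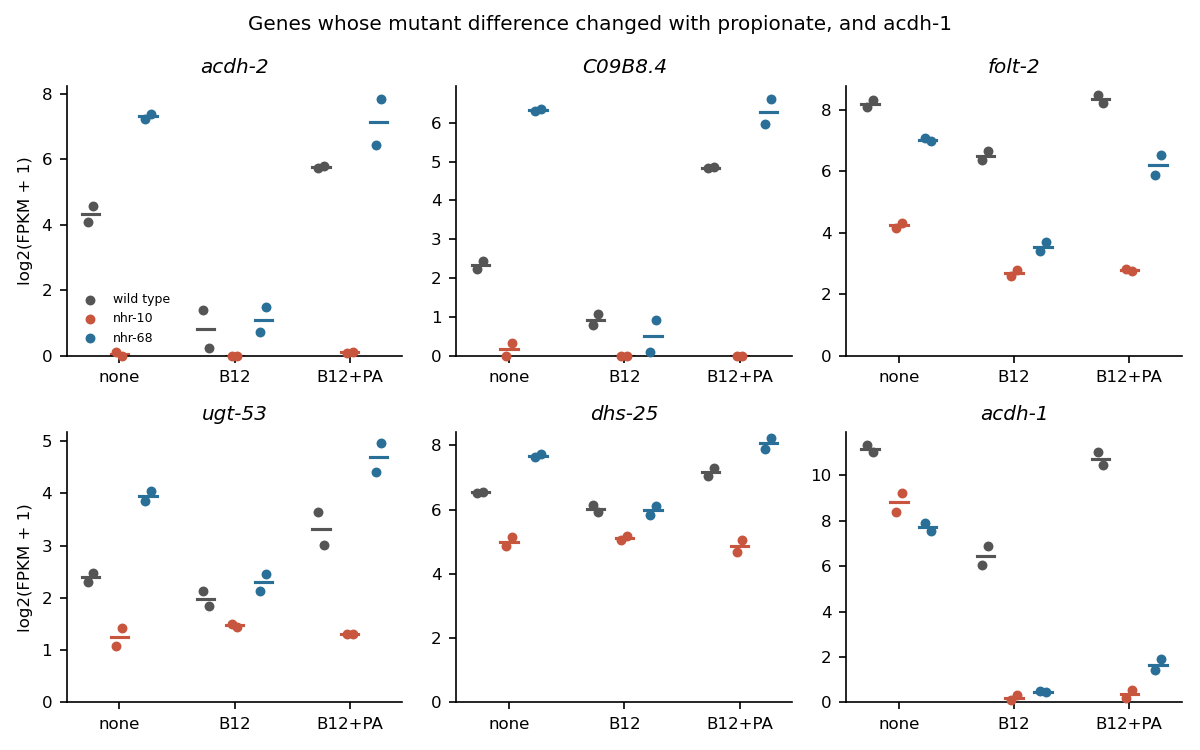
Log2(FPKM + 1) of acdh-2, C09B8.4, folt-2, ugt-53, dhs-25 and acdh-1 in the 3 genotypes under each treatment; points are libraries and horizontal marks the mean of the 2. In the first 5 genes the nhr-68 libraries lie above the nhr-10 libraries with propionate and untreated, with the mutants closer together on B12 alone; acdh-1 is near 0 in both mutants on propionate.

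Of 10 genes of branched-chain amino acid breakdown 2 rose and none fell, against 0.417% of all genes higher, and both calls held in every fit without a library and with the stage axes. ivd-1 (IV, 5086856 to 5088864), the isovaleryl-CoA dehydrogenase gene of leucine breakdown, read 65.3 and 67.0 FPKM in nhr-10 mutants, 389 and 380 in nhr-68 mutants, and 80.6 and 84.7 in wild type (2.52 ± 0.148 SE; limma, adjusted p = 9.82e-07). Here the nhr-68 mutants stood apart and the nhr-10 mutants were near wild type. acdh-9 (II, 846864 to 848603), an acyl-CoA dehydrogenase gene, read 41.0 and 41.8, 87.9 and 111 in the mutants in that order, and 80.7 and 72.5 in wild type (1.24 ± 0.128, adjusted p = 0.000334). C05C10.3 (II, 9934398 to 9936893), a predicted ketoacid CoA-transferase gene, read 61.8 and 51.9 against 273 and 326 FPKM, with 225 and 167 in wild type (2.38 ± 0.191). Of all genes, 0.417% were called higher and 0.86% lower. Among 20 genes of mitochondrial fatty acid oxidation acdh-2 and the thiolase gene kat-1 rose and hacd-1 fell; kat-1 read 108.5 and 96.9 against 199.5 and 179.9 FPKM (0.88 ± 0.187, adjusted p = 0.0433) and was called in none of the fits without a library.

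Further large rises were ZK1025.3 (6.43 and 7.11 FPKM in nhr-10 mutants against 48.6 and 58.6 in nhr-68 mutants) and Y9C9A.16 (0.39 and 0.40 against 4.59 and 12.3), both called in every fit without a library and with the stage axes. clec-47, a C-type lectin gene, read 0.40 and 0.41 against 8.61 and 27.6 FPKM (3.56 ± 0.508, adjusted p = 0.00388), and its call ended with the stage axes (adjusted p = 0.158). Y47D7A.7, Y47D7A.2, nas-20 and LLC1.121 were each called in only 1 of the 4 fits without a library, with log2 differences from 2.40 to 4.15. Y47D7A.7 and Y47D7A.2 lie beside each other on chromosome V, and both were listed at 0 in the nhr-10 libraries. The pathogen response gene irg-7 rose from 82.4 and 97.01 to 169 and 163 FPKM (0.88 ± 0.133, adjusted p = 0.00516), and was called in 2 of those 4 fits.

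Among genes of detoxification, 7 of 37 glutathione S-transferase genes were lower in nhr-68 mutants and none higher, where 0.86% of all genes were lower. The family, which joins glutathione to reactive molecules, had a median log2 difference of -0.47 against -0.12 over all genes. Its summed level was 2417 and 2268 FPKM in nhr-10 mutants, 1340 and 1377 in nhr-68 mutants, and 1444 and 1455 in wild type. gst-4 (IV, 10142225 to 10143099), a widely used marker of the oxidative stress response, read 514 and 387 FPKM in nhr-10 mutants, 153 and 146 in nhr-68 mutants, and 124 and 94.6 in wild type. Untreated, gst-4 differed as well, with 126.1 and 126.6 FPKM in nhr-10 mutants against 51.6 and 37.2 in nhr-68 mutants. That difference was -1.51 (limma, adjusted p = 0.0041), and on B12 alone it was -1.13 and did not pass (adjusted p = 0.0868). On B12 with propionate the nhr-10 libraries were far above the other 4. Its difference was -1.57 ± 0.211 (SE; limma, Benjamini-Hochberg adjusted p = 0.00261), and it held in every fit without a library and with the stage axes.

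gst-7 read 240.0 and 227 against 103.6 and 111.2 FPKM (-1.11 ± 0.185), gst-38 34.5 and 29.8 against 15.3 and 14.5 (-1.06 ± 0.202), and gst-19 3.30 and 5.28 against 0.44 and 0.34 (-1.90 ± 0.301). The remaining 3, named after their values were seen, were gst-6, gst-13 and gst-16, with differences from -1.16 to -0.83. None of the 6 was called with the stage axes. At an unadjusted p under 0.05, 819 of all 15575 genes were higher and 2038 lower. The family's count was 3 without nhr-10 library 1 and 1 without any other library of the 4, and 5 with median-ratio scaling, while 18 members were lower and 1 was higher at an unadjusted p under 0.05.

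cysl-2 (II, 14492874 to 14494451), of the cysteine synthase family and a known target of the hypoxia factor HIF-1, was the only called gene of 16 in transsulfuration and the hydrogen sulphide response. Of all genes 1.28% were called and 0.86% were lower, and a single call is not read as a trait of its list. cysl-2 read 236.5 and 243 FPKM in nhr-10 mutants, 68.1 and 42.4 in nhr-68 mutants, and 43.7 and 14.4 in wild type. The nhr-10 libraries were again apart from the rest, but the call (-2.13 ± 0.393, adjusted p = 0.0203) held in only 1 of the 4 fits without a library, and with the stage axes the difference was -1.45 (adjusted p = 0.817). hacd-1 (V, 1460369 to 1461613), a hydroxyacyl-CoA dehydrogenase gene, read 172 and 228, 54.9 and 42.6, and 29.6 and 26.2 FPKM in the same order, and its call (-2.01 ± 0.254, adjusted p = 0.00155) held in all 4. With the stage axes its adjusted p was 0.0899. nit-1 (III, 3922207 to 3923873), a nitrilase gene, read 24.2 and 28.9, 5.96 and 4.4, and 4.52 and 2.56 FPKM (-2.16 ± 0.214, adjusted p = 0.00023), and held in all 4 fits and with the stage axes. The lysosomal lipase gene lipl-1 fell as well (5.97 and 5.72 against 1.02 and 0.55 FPKM; -1.95 ± 0.272), the only one of 7 lipase genes, and its call ended in 1 of the 4 fits.

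Pathogen response genes had calls in both directions. pals-14 (I, 13139122 to 13141898), of a family tied to the intracellular pathogen response, read 9.38 and 15.9 FPKM in nhr-10 mutants, 2.14 and 1.80 in nhr-68 mutants, and 0.53 and 0.46 in wild type (-2.16 ± 0.269; limma, adjusted p = 0.0015). On B12 alone it was under 1 FPKM in all 6 libraries. It was called in every fit without a library and with the stage axes. Of 83 innate immune effector genes 1 rose (irg-7) and 1 fell, dod-24, which read 218 and 194 against 85.4 and 70.8 FPKM (-1.39 ± 0.218) and lost its call in 2 of the 4 fits. Of all genes, 0.417% were called higher and 0.86% lower, so 1 call each way among 83 genes is not read as a trait of that list. Of 129 C-type lectin genes 2 rose and 5 fell, against the same shares, with clec-60, clec-71 and clec-72 among the latter. clec-60 read 7.14 and 17.5 against 1.15 and 2.23 FPKM and was under 1 FPKM in wild type on propionate, and of these 3 only clec-71 (4.78 and 5.34 against 0.64 and 0.26) was called in all 4 fits, and its call ended with the stage axes (adjusted p = 0.129).

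Among 178 nuclear hormone receptor genes 4 fell in nhr-68 mutants, against 0.86% of all genes: nhr-68, nhr-62, nhr-235 and, named after its values were seen, nhr-178, and 1 rose, nhr-74. nhr-62 read 9.33 and 9.19 against 3.38 and 3.44 FPKM (-1.22 ± 0.215, adjusted p = 0.016). nhr-74 was listed at 0 in both nhr-10 libraries and at 2.13 and 1.97 FPKM in nhr-68 mutants. nhr-68, nhr-62, nhr-235 and nhr-74 were each called in only 1 of the 4 fits without a library. ugt-32 (10.8 and 12.5 against 2.33 and 1.18 FPKM) was the only one of 58 UDP-glucuronosyltransferase genes lower in nhr-68 mutants, as ugt-53 was the only one higher. These single calls and those of the next lists stand beside 1.28% of all genes called, 0.417% higher and 0.86% lower. No such single call is read as a trait of its list. cyp-34A6 (-1.05 ± 0.186) was the only one called of 49 cytochrome P450 genes, acox-1.1 (-0.64 ± 0.133) of 13 peroxisomal oxidation genes, msp-51 (-0.64 ± 0.135) of 87 sperm genes, and folt-2 of 15 methionine cycle genes. The first 3 lost their calls in at least 3 of the 4 fits. K01D12.1, T23F6.2 and Y58A7A.5 completed the largest falls, with differences from -3.17 to -2.41, each called in 2 of the 4 fits. With the stage axes none of these receptors was called, nor were ugt-32, cyp-34A6, acox-1.1, msp-51, K01D12.1, T23F6.2, Y58A7A.5, irg-7, dod-24, clec-60, clec-72, kat-1, Y47D7A.7, Y47D7A.2, nas-20 or LLC1.121.

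**Figure D4:**
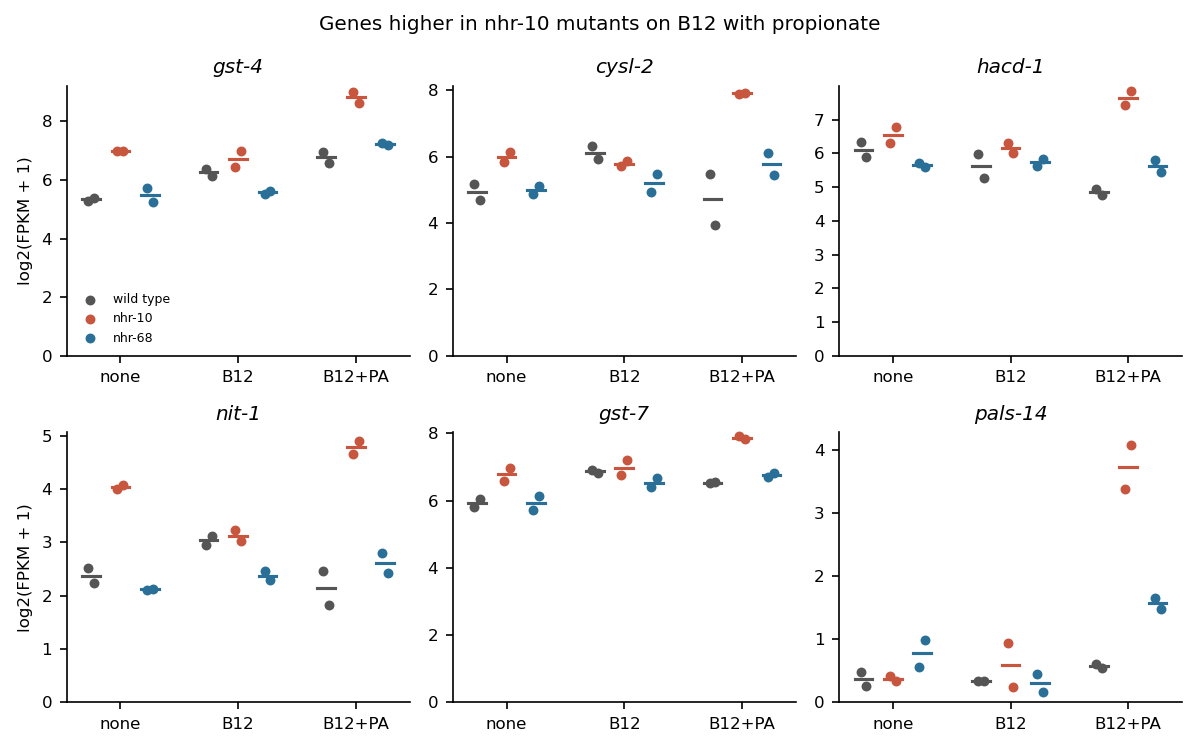
Log2(FPKM + 1) of gst-4, cysl-2, hacd-1, nit-1, gst-7 and pals-14 in the 3 genotypes under each treatment; points are libraries and horizontal marks the mean of the 2. On B12 with propionate both nhr-10 libraries lie above the nhr-68 and wild-type libraries in all 6 genes; pals-14 is below 1 FPKM in every library without propionate.

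The other 20 of the 34 gene lists had no called member. They held 533 tested genes, of which 148 had an unadjusted p under 0.05 (over all genes, 2857 of 15575), and included ribosomal proteins, heat shock and oxidative stress genes, both unfolded protein responses, glycine cleavage, fatty acid synthesis, the tricarboxylic acid cycle, transthyretin-related and hedgehog-related genes, and the intestine, muscle, pharynx and neuron markers. The 12 protein-coding genes of the mitochondrial genome summed to 13606 and 13360 FPKM in nhr-10 mutants and 8283 and 9982 in nhr-68 mutants, and 4 were lower at an unadjusted p under 0.05. Of all 15575 genes, 819 were higher and 2038 lower at that level. Of 147 cuticle collagen genes 32 were higher and 26 lower at that level; without nhr-10 library 1, 29 were called higher and 1 lower.

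The same contrast between the mutants was made in separate libraries without propionate. Untreated, 87 genes were called (0.559% of those tested), 35 higher (0.225%) and 52 lower (0.334%) in nhr-68 mutants. On B12 alone 22 were called (0.141%), 8 higher (0.0514%) and 14 lower (0.0899%). Of the 199 genes called with propionate, 55 were also called untreated (27.6% of the 199 and 63.2% of the 87). Among the 55 were gst-4, nit-1, lipl-1, dod-24, acox-1.1, nhr-68, acdh-9, C05C10.3, kat-1, ZK1025.3 and alh-8, whose differences were thus not limited to propionate. On B12 alone 17 of the 199 were also called (8.54% of the 199 and 77.3% of the 22). All of these shared calls were in the same direction. Leaving out a library lowered these counts to 53 or 28 (nhr-10 library 1 or 2) and 50 or 27 (nhr-68 library 1 or 2) untreated, and to 11 or 12 and 8 or 8 on B12.

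Called under all 3 treatments were 16 genes, 7 higher and 9 lower. Among them mpst-6 is counted more than once, under separate identifiers. Of the 199 genes called with propionate, 4 had values identical to those of another called gene and are counted separately. nra-2 (I, 9620227 to 9622377), which encodes a nicalin-like protein of the endoplasmic reticulum, read 96.1 and 92.2 FPKM in nhr-10 mutants, 9.94 and 12.1 in nhr-68 mutants, and 97.6 and 95.03 in wild type. Its log2 difference was -2.99 ± 0.127 (SE; limma, adjusted p = 6.88e-08) with propionate, -3.07 on B12 and -3.04 untreated. R09E10.2 (IV, 10317563 to 10318299) read 12.3 and 13.1 FPKM in nhr-10 mutants, 202 and 229 in nhr-68 mutants and 18.3 and 14.9 in wild type, with differences of 3.98, 3.63 and 4.11 in that order. Y58A7A.3 (V, 5077854 to 5080903) read 50.7 and 46.2, 0.18 and 0.25, and 55.3 and 36.1 FPKM (-5.35, -4.36 and -4.71). A further gene at 16506572 to 16507232 on chromosome IV read 15.6 and 14.2, 0 and 0.99, and 13.02 and 16.16 FPKM (-3.49, -4.06 and -3.60). In these 4 genes and in ivd-1 the nhr-68 mutants were the ones apart, and the calls held in every fit without a library and with the stage axes. F36D1.8, with 21.5 and 8.39 FPKM in nhr-10 mutants against 0.58 and 0.59, also held in them but was called only with propionate and untreated.

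**Figure D5:**
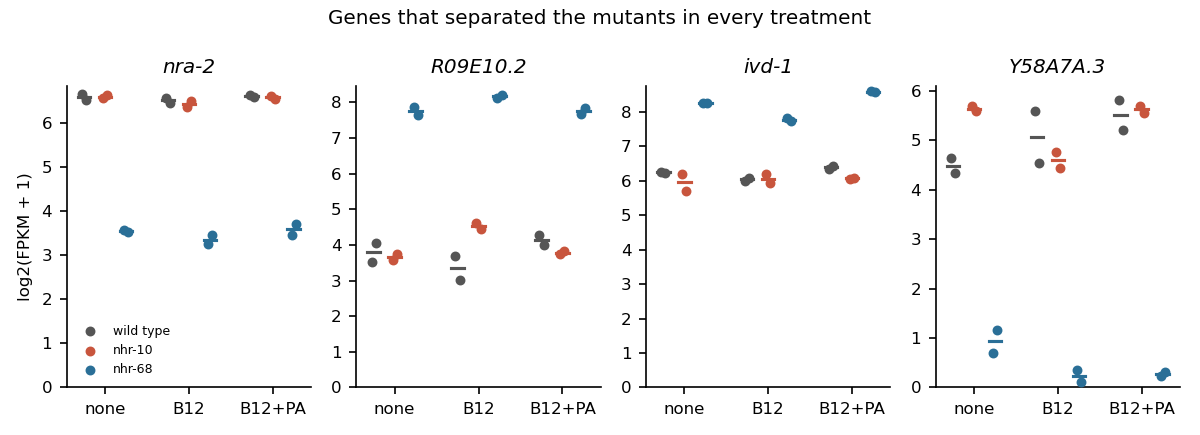
Log2(FPKM + 1) of nra-2, R09E10.2, ivd-1 and Y58A7A.3 in the 3 genotypes under each treatment; points are libraries and horizontal marks the mean of the 2. The nhr-68 libraries are apart from the nhr-10 and wild-type libraries in all 3 treatments, by about the same distance in nra-2 (-2.99, -3.07 and -3.04).

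By chromosome, the called share was lowest on III (8 of 2351 genes, 0.34%), which carries nhr-10, and highest on V (58 of 3119, 1.86%), which carries nhr-68. Within 2 Mb of nhr-10, 2 of 810 genes were called (0.247%), and within 2 Mb of nhr-68, 13 of 772 (1.68%), against 1.28% overall.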

How the data were processed

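RNA was taken from whole L4 animals, per the labels' protocols, and 1 table holds 20953 genes in 18 libraries. Its FPKM values were made by the authors and deposited with replicates apart; HISAT, Bowtie2 and RSEM on build WBcel235 are named in the submitters' processing notes, while versions, settings and strand use are not stated in the sources at hand. Reads of similar genes are divided by RSEM by estimate, so values of close copies (acdh-1 and acdh-2, mpst-6 under 2 identifiers, msp and gst genes) and overlapping genes are uncertain. The file gives no counts; the estimated 12540000 to 14120000 fragments per library come from the step of low values of single-transcript genes.

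Names and coordinates came from Ensembl release 115 of WBcel235; 208 identifiers had no entry. The filter kept genes that reached 1 FPKM in 2 or more libraries; levels were put on the log2(FPKM + 1) scale, which understates the change of low genes, and the model was fitted to all 9 groups with limma 3.58.1 under R 4.3.3, an intensity trend and 9 residual degrees of freedom. P-values were adjusted by the Benjamini-Hochberg method over the 15575 genes of each of 6 comparisons, with a threshold of 0.05; differences are nhr-68 minus nhr-10. The fit was also run on simulated data with independent noise and no library that stands apart. That run therefore does not vouch for the counts given here.

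Named genes are both receptors, both propionate lists, the 15 largest rises and falls among called genes that do not overlap and reach 5 FPKM in a mutant, up to 4 called genes of each of 34 lists, up to 10 interaction genes and 9 regulators. Members, lists and this rule were chosen with earlier results of these data known. Alternatives were median-ratio scaling, a pseudocount of 0.1, fits without the filter or the trend, with the compared groups alone, with the replicate number as a block or with the stage axes as covariates, and leaving out each library, whose partner is then taken to vary like the other groups.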

Additional observations from a re-analysis of the deposited data

Results flagged for a closer look

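The difference between the mutants was itself larger on B12 with propionate than on B12 alone in 5 genes, by the interaction term of limma with Benjamini-Hochberg adjustment. On the log2(FPKM + 1) scale the nhr-68 minus nhr-10 difference grew by 5.93 for acdh-2, 5.76 for C09B8.4, 2.56 for folt-2, 2.55 for ugt-53 and 2.32 for dhs-25. In all 5 both nhr-68 libraries were above both nhr-10 libraries with propionate. Animals with neither B12 nor propionate were not in this test, and there the difference was 7.25 for acdh-2, 6.16 for C09B8.4, 2.79 for folt-2, 2.69 for ugt-53 and 2.67 for dhs-25, against 7.04, 6.29, 3.43, 3.38 and 3.19 on B12 with propionate. With only the compared groups in the fit none of the 5 was called for the interaction. The interaction shares its propionate libraries with the main comparison, and no reason for these differences was tested.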

How the results depend on the processing

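Of the 47 named genes called with propionate, 21 were called in all 4 fits without a library, 43 with median-ratio scaling, 45 without the trend, 44 without the low-value filter, 39 with a pseudocount of 0.1, 11 with only the compared groups and 19 with the stage axes. The 199 calls became 125 with a pseudocount of 0.1, 12 with only the compared groups (fewer libraries) and 32 with the stage axes, and 52 to 376 without a library. The other counts with only the compared groups were 1 of 22 on B12, 15 of 87 untreated, 0 of 5 for the interaction (448 genes higher and 548 lower at an unadjusted p under 0.05), 7 of 1120 for nhr-10 mutants and 12 of 488 for nhr-68 mutants against wild type; the last pair was 17 and 17 with the stage axes. The interaction count was 30 without the filter (11 larger, 19 smaller), 8 with median-ratio scaling (7 and 1) and 9 without the trend (6 and 3). With a pseudocount of 0.1 and with the stage axes it was 4, all larger, and which genes these were is not given here. Without a library the counts ranged from 8 to 12 on B12, 27 to 53 untreated, 4 to 67 for the interaction, 219 to 1558 for nhr-10 and 52 to 188 for nhr-68 mutants against wild type. The cause of these changes was not tested.

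The labels do not tie libraries of the same replicate number to each other. Between the mutants, deviations over the shared numbers correlated at 0.07 with propionate, 0.43 on B12 and 0.16 untreated, each over only 2 numbers. With the replicate number as a block 198 genes were called with propionate, 25 on B12, 134 untreated and 8 for the interaction. Crossing the wild-type numbers in the comparison with nhr-10 mutants, where the correlation was -0.20, gave 1220 calls with the block.

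Among the 69 named genes, only uncalled ones changed sign under these alternatives. With median-ratio scaling nhr-49 became 0.04, nhr-66 0.07, nhr-80 0.08, nhr-13 0.08 and mmaa-1 0.04. With the stage axes nhr-80 became 0.04, nhr-8 0.01, nhr-86 -0.10, sbp-1 -0.08, mce-1 0.14, mmaa-1 0.07 and cblc-1 0.08. Without nhr-10 library 1 nhr-66 became 0.07 and nhr-13 0.05; without nhr-10 library 2 nhr-86 became -0.05 and mmaa-1 0.02; without nhr-68 library 1 nhr-49 became 0.01, nhr-66 0.02 and mmaa-1 0.16; without nhr-68 library 2 nhr-86 became -0.04. The lowest values without a library were -0.15 for nhr-49, -0.16 for nhr-66, -0.07 for nhr-13 and -0.32 for mmaa-1. Depth limits values near 0.1 FPKM, which rest on few fragments, and 52 of the 199 called genes were under 5 FPKM in both mutants.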

Other observations

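Some called genes lay side by side on the chromosome, chosen here after their values were seen. C31E10.5 (X, 13991458 to 13995834) and C31E10.6 (X, 13996338 to 13999351) were listed at 0 in all 6 nhr-10 libraries and read 4.21 and 4.61 and 2.97 and 3.25 FPKM in nhr-68 mutants on propionate. Wild type read 4.63 and 4.11 for the first gene and 2.26 and 2.48 for the second. Around ivd-1 on chromosome IV, its overlapping neighbour pygo-1 (5083303 to 5086907) read 27.7 and 31.5 FPKM in nhr-10 mutants and 79.4 and 83.3 in nhr-68 mutants, and C02B10.4 (5091586 to 5092807) read 58.8 and 60.8 against 115.1 and 111.3. Both were called under all 3 treatments, as ivd-1 was (limma, Benjamini-Hochberg adjustment). On chromosome V, Y58A7A.4 (5081988 to 5085007), between Y58A7A.3 and Y58A7A.5, was listed at 0 in all 6 nhr-68 libraries and read 2.54 and 2.79 FPKM in nhr-10 mutants on propionate. What these neighbours share besides position was not tested.

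A few more metabolic genes rose in nhr-68 mutants in every fit without a library and with the stage axes, and were also chosen after their values were seen. sur-5, of the acetoacetyl-CoA synthetase family, read 27.5 and 27.3 FPKM in nhr-10 mutants, 100.5 and 90.4 in nhr-68 mutants and 35.3 and 35.1 in wild type. The short-chain dehydrogenase gene dhs-14 read 16.0 and 18.2, 43.8 and 55.9, and 42.8 and 40.4 FPKM, and vwa-8 read 20.3 and 18.6, 51.8 and 55.4, and 67.0 and 53.7.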
